A study of Mus musculus with 6 samples.

Results

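The replication-dependent histone genes are the clustered gene copies that encode the linker histone H1 and the core histones H2A, H2B, H3 and H4. Members were all genes whose GENCODE M21 symbol begins with Hist1h, Hist2h, Hist3h or Hist4h, whatever their values. Of the 53390 genes with matched transcripts, 70 met this rule, and 67 of them are annotated as protein-coding and 3 as pseudogenes. By type there are 6 H1, 20 H2A, 19 H2B, 12 H3 and 13 H4 genes. The Hist1 cluster on chromosome 13 holds 56 of them, Hist2 on chromosome 3 holds 10, Hist3 on chromosome 11 holds 3 and Hist4 on chromosome 6 holds 1.

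RNA of mouse embryonic stem cells (mESCs) without DNA methyltransferases was sequenced to compare culture in 2i with culture in serum. All libraries came from 1 triple-knockout (TKO) line with the genotype Dnmt1-/-, Dnmt3a-/-, Dnmt3b-/-, so both groups lack the same genes and no wild-type library is included. The 3 TKO-2i libraries came from cells in N2B27 medium with the MEK inhibitor PD0325901 (1 uM), the Gsk3 beta inhibitor CHIR99021 (3 uM) and LIF (1000 U/ml). The 3 TKO-serum libraries came from cells in DMEM with 15% FCS and LIF (500 U/ml). Stranded libraries were made from 500 ng of total RNA with poly(A) selection, and the replicates are labelled as biological.

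Replication-dependent histone genes are transcribed mainly in S phase, when new DNA has to be packed into chromatin. Their mRNAs end in a stem-loop in place of a poly(A) tail, and SLBP and the U7 small nuclear ribonucleoprotein direct the cut that forms this end. Poly(A) selection therefore recovers them poorly, while some of these genes also yield longer transcripts with a poly(A) tail.

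Total estimated counts were 46228700, 44180642 and 43896549 in TKO-2i replicates 1 to 3 and 38274042, 51932739 and 44827609 in TKO-serum replicates 1 to 3. Values per library are given in this order throughout, as CPM, the counts scaled to a common library size with TMM factors, or as TPM, the deposited abundances scaled by transcript length. A count of 3, taken as the floor of detection, corresponds to between 0.0564 and 0.0778 CPM. The targeted genes were read in all libraries: Dnmt1 had 29.1, 34.6 and 29.3 TPM in TKO-2i and 25.7, 28.6 and 27.9 TPM in TKO-serum. Dnmt3a had 4.30, 5.19 and 4.54 TPM in TKO-2i and 21.3, 23.0 and 22.7 TPM in TKO-serum, and Dnmt3b had 6.71, 9.53 and 8.49 TPM in TKO-2i and 18.8, 20.9 and 20.7 TPM in TKO-serum. Counts were summed over whole genes, so these values do not check the deleted parts.

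The 10 mESC markers summed to 5599, 5139 and 5097 TPM in TKO-2i and 6579, 6282 and 6365 TPM in TKO-serum, without overlap. Of them 2 were called higher and 6 lower in TKO-2i (20% and 60%, against 31.9% and 30.6% of all genes tested), with a median log2 fold change of −0.31, and Dppa5a was the most abundant (mean TPM 2467). Pou5f1 had 1057, 982 and 1012 TPM in TKO-2i and 1249, 1249 and 1253 TPM in TKO-serum. Fibroblast markers summed to between 6.17 and 7.24 TPM, of which Thy1 held most (mean TPM 3.99), and Twist2 was at 0 in all TKO-2i libraries. The 10 primitive endoderm markers were low but differed between the groups, with summed TPM of 4.80, 5.87 and 4.72 in TKO-2i and 17.1, 20.7 and 22.2 in TKO-serum. Of the 8 that were tested 7 were lower in TKO-2i (87.5%, against 30.6% of all genes tested), Dab2 was the most abundant (mean TPM 3.50) and Ttr was at 0 in all TKO-2i libraries. The part of such cells in the histone values was not tested, and fewer cells of a type and less RNA per cell cannot be told apart.

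Both replicate 2 libraries stood apart from the others. Compared with counting noise, the chi-square per gene between TKO-2i replicates was 45.0 for replicates 1 and 2 and 27.4 for 2 and 3, against 7.08 for 1 and 3. The same values in TKO-serum were 16.0, 11.0 and 4.69. The summed CPM of the histone genes was 102, 82.5 and 97.4 in TKO-2i and 118, 96.8 and 105 in TKO-serum, and replicate 2 had the lowest value in each group. A pair of short annotated microRNA genes, Gm23935 and Mir6236, took 12.3%, 9.13% and 13.0% of all TPM in TKO-2i and 11.6%, 9.60% and 10.9% in TKO-serum, again lowest in replicate 2. Mitochondrial genes took 1.44%, 2.28% and 1.64% of counts in TKO-2i and 1.55%, 1.81% and 1.67% in TKO-serum, highest in replicate 2 of each group. The part of these differences in the histone values was not tested.

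The histone genes were read at low levels in all libraries. Their TPM summed to 312, 299 and 307 in TKO-2i and 346, 302 and 320.4 in TKO-serum, a fold of 0.948 between group means with overlapping groups. On the CPM scale the fold was 0.879, also with overlap. The highest by mean TPM over all libraries, Hist1h2ai, ranked 5270 of 53390 genes. By mean CPM, Hist1h1c alone held 15.4% of the histone sum, and the first 10 genes held 54.7%.

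Histone genes moved in both directions between the media. Of the 70 genes, 60 passed the filter on low counts, and 11 of these were called higher and 16 lower in TKO-2i (edgeR, adjusted p under 0.05), while 33 were not called. These are 18.3% and 26.7% of the genes tested, against 31.9% higher and 30.6% lower among all 18177 genes tested; the difference in shares was not tested. The median log2 fold change was −0.26 for histone genes and 0.01 for all genes tested. Histone genes were also read less and measured less precisely: the median of mean CPM was 0.874 against 11.2, and the median SE 0.24 against 0.10. Among genes with a mean CPM between 0.2 and 20, 24.8% of all 10508 were higher and 36.6% lower, with a median of −0.15, so that lower calls were the more frequent ones in both sets at this level. Without both replicate 2 libraries, 13 of 60 histone genes were called higher and 21 lower, or 21.7% and 35.0%, against 32.8% in each direction over all 18243 genes tested. The 10 untested genes had a mean of at most 0.203 CPM, and Hist1h4m had no count in any library.

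In limma on log2(TPM + 1), 41.0% of the calls over all genes were higher in TKO-2i, against 51.1% in edgeR. That fit differs from edgeR in test, filter and scale, and edgeR on counts from length-scaled TPM had 50.7%. The histone genes in limma had 8 higher and 22 lower of 67, or 11.9% and 32.8%, against 18.9% and 27.2% over all 21973 genes.

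**Figure D1:**
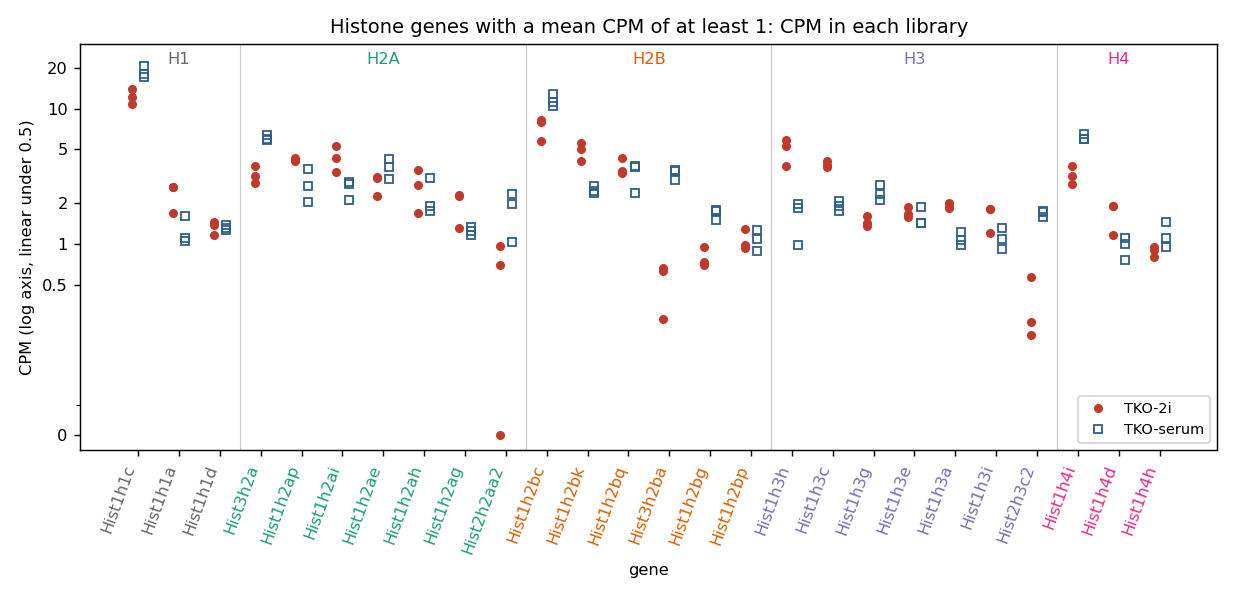
CPM in each library (y axis, logarithmic above 0.5 and linear below) of the 26 histone genes whose mean was 1 CPM or more, ordered by type and level; filled circles are TKO-2i and open squares TKO-serum libraries. Hist1h1c, Hist1h2bc, Hist3h2a and Hist1h4i lie higher in all TKO-serum libraries, Hist1h2bk, Hist1h3h and Hist1h3c in all TKO-2i libraries.

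Linker histone H1 binds the DNA between nucleosomes. Of its 6 genes, all tested, 1 was higher and 2 lower (16.7% and 33.3%, against 31.9% and 30.6% of all genes tested). Hist1h1c (chr13:23738808-23740367, GRCm38, plus strand) was the most abundant H1 gene, with a mean TPM of 15.3, and had 13.9, 10.8 and 12.1 CPM in TKO-2i and 20.5, 17.0 and 18.1 CPM in TKO-serum. Its 3 TKO-serum libraries lay above all TKO-2i libraries (log2 fold change −0.59, SE 0.11, edgeR adjusted p = 0.00135). Hist1h1a went the other way, with 2.66, 1.68 and 2.65 CPM in TKO-2i and 1.61, 1.05 and 1.11 CPM in TKO-serum. Its groups did not overlap either, although TKO-2i replicate 2 came close to TKO-serum replicate 1 (log2 fold change 0.91, SE 0.24, edgeR adjusted p = 0.00944). Hist1h1d had 1.38, 1.16 and 1.45 CPM in TKO-2i and 1.32, 1.28 and 1.39 CPM in TKO-serum, with overlapping groups and a log2 fold change of 0.00 (SE 0.16, edgeR adjusted p = 0.993). Hist1h1t, the testis-specific H1 gene, was named after its values were seen, since it completes the count of lower genes. It had 0, 0.0455 and 0.188 CPM in TKO-2i and 0.415, 0.263 and 0.370 CPM in TKO-serum, close to the floor in TKO-2i (log2 fold change −2.13, SE 0.68, edgeR adjusted p = 0.0237), and its edgeR adjusted p was 0.0657 without TKO-serum replicate 1 and 0.0722 without TKO-serum replicate 3. The summed CPM of H1 genes was 19.7, 15.1 and 17.8 in TKO-2i and 25.9, 21.1 and 22.7 in TKO-serum, lower in all TKO-2i libraries with a fold of 0.754. Without Hist1h1c, the other 5 genes, summed after the data were seen, had 5.85, 4.23 and 5.68 CPM in TKO-2i. In TKO-serum they had 5.42, 4.10 and 4.63 CPM, with overlap and a fold of 1.11. With Hist1h1a left out as well, the fold was 0.844 in CPM, with overlap, and 0.755 in TPM, without overlap.

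H2A genes supply a side of the H2A-H2B dimer. Among 16 tested of 20, 3 were higher and 3 lower (18.75% each, against 31.9% and 30.6% of all genes tested). These counts were not steady, with between 1 and 3 higher and between 3 and 6 lower when each library was left out, 3 higher and 7 lower without both replicate 2 libraries, and 1 higher and 6 lower in limma on log2(TPM + 1). Hist1h2ai had the highest mean TPM of all histone genes over all libraries (24.4). Within groups, the mean TPM of Hist1h3h was higher in TKO-2i (29.9 against 29.6) and that of Hist1h2bc in TKO-serum (22.2 against 19.1). Hist1h2ai had 5.33, 3.41 and 4.29 CPM in TKO-2i and 2.85, 2.12 and 2.79 CPM in TKO-serum. All TKO-2i libraries lay above all TKO-serum libraries (log2 fold change 0.76, SE 0.19, edgeR adjusted p = 0.00735). Only 7.99% of the 31-base words in its transcript occur in no other gene, and how its reads were divided among near-identical genes was not tested. The H2A gene with the highest mean CPM over all libraries was Hist3h2a. In TKO-2i, Hist1h2ai and Hist1h2ap had more (mean CPM 4.34 and 4.22 against 3.27). Hist3h2a had 2.81, 3.80 and 3.19 CPM in TKO-2i and 6.35, 5.94 and 5.85 CPM in TKO-serum. It was lower in every TKO-2i library (log2 fold change −0.89, SE 0.12, edgeR adjusted p = 0.000273), and 67.9% of its words occur in no other gene.

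Hist1h2ap had 4.26, 4.12 and 4.29 CPM in TKO-2i and 3.58, 2.03 and 2.68 CPM in TKO-serum and was called higher (log2 fold change 0.63, SE 0.19, edgeR adjusted p = 0.0165), but not without TKO-serum replicate 3 (adjusted p = 0.0569) or in limma on log2(TPM + 1) (0.0651). Hist1h2ag had 2.25, 1.32 and 2.30 CPM in TKO-2i and 1.17, 1.26 and 1.33 CPM in TKO-serum, and TKO-2i replicate 2 lay within the TKO-serum range. Its call (log2 fold change 0.64, SE 0.22, edgeR adjusted p = 0.0348) was lost without any one of TKO-2i replicates 1 and 3 and TKO-serum replicates 1, 2 and 3, where the adjusted p lay between 0.0720 and 0.129, and in DESeq2 (0.0550). Hist1h2ab and Hist1h2ao, named after their values were seen, were lower at low levels, with log2 fold changes of −0.999 and −1.51 (SE 0.23 and 0.43, edgeR adjusted p = 0.00536 and 0.0134). The call of Hist1h2ao was lost without TKO-serum replicate 2 (adjusted p = 0.0612). Hist1h2ae, Hist1h2ah and Hist2h2aa2 were not called in edgeR. Hist1h2ae was called lower without TKO-serum replicate 2 (log2 fold change −0.50, edgeR adjusted p = 0.0434), without both replicate 2 libraries (−0.37, edgeR adjusted p = 0.0466) and in limma on log2(TPM + 1) (−0.48, adjusted p = 0.0157) and on log2(TPM + 0.1) (−0.52, adjusted p = 0.0154). The summed CPM of H2A genes overlapped, with 25.2, 20.7 and 24.6 in TKO-2i and 29.0, 23.0 and 25.6 in TKO-serum and a fold of 0.909, or 1.02 without Hist3h2a. Without Hist3h2a, Hist1h2ai and Hist1h2ap the groups did not overlap in CPM (fold 0.806). In TPM they overlapped with all genes (fold 0.958) but not without Hist1h2ai (fold 0.846).

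H2B genes had 2 higher and 5 lower among 15 tested of 19 (13.3% and 33.3%, against 31.9% and 30.6% of all genes tested). Hist3h2ba (chr11:58948920-58949533, plus strand) had the largest difference of all histone genes called, with 0.669, 0.387 and 0.633 CPM in TKO-2i and 3.45, 2.99 and 3.55 CPM in TKO-serum. Every TKO-serum library had several times the level of every TKO-2i library (log2 fold change −2.55, SE 0.20, edgeR adjusted p = 9.86e-06). Hist1h2bc was the most abundant H2B gene over all libraries (mean TPM 17.5), but in TKO-2i Hist1h2bk had more (mean TPM 16.8 against 12.7). Hist1h2bc had 7.90, 5.73 and 8.28 CPM in TKO-2i and 12.8, 10.5 and 11.2 CPM in TKO-serum. It was lower in all TKO-2i libraries (log2 fold change −0.65, SE 0.14, edgeR adjusted p = 0.00370). Hist1h2bg was also lower in all of them, with 0.736, 0.955 and 0.704 CPM in TKO-2i and 1.504, 1.79 and 1.74 CPM in TKO-serum (log2 fold change −1.07, SE 0.18, edgeR adjusted p = 0.000883).

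Hist1h2bk was the main H2B gene in the other direction, with 5.07, 4.07 and 5.53 CPM in TKO-2i and 2.70, 2.46 and 2.37 CPM in TKO-serum. All TKO-2i libraries lay above all TKO-serum libraries (log2 fold change 0.96, SE 0.14, edgeR adjusted p = 0.000344). The rest of the called H2B genes had a mean CPM under 1 and were named after their values were seen: Hist1h2bj was higher (log2 fold change 1.44, edgeR adjusted p = 0.00283). Hist1h2be was lower (−1.15, edgeR adjusted p = 0.000963). Hist1h2bh was lower (−0.58, edgeR adjusted p = 0.0425), and its call was lost without TKO-2i replicate 2 or 3 and without TKO-serum replicate 1 or 2, with adjusted p between 0.0940 and 0.153, and in DESeq2 (0.147). Hist1h2bq and Hist1h2bp were not called and their groups overlapped. The summed CPM of H2B genes was 25.5, 21.0 and 25.1 in TKO-2i and 32.0, 27.7 and 29.0 in TKO-serum, lower in all TKO-2i libraries with a fold of 0.809. Without Hist1h2bc the groups overlapped in CPM (fold 0.919), and without Hist1h2bc and Hist3h2ba the fold was 1.09, again with overlap. In TPM the groups did not overlap without Hist1h2bc (fold 0.912). Without Hist1h2bc and Hist3h2ba they overlapped in TPM too (fold 1.07).

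H3 genes, whose protein pairs with H4 in the core of the nucleosome, had 3 higher and 4 lower with all 12 tested. The shares were 25% and 33.3%, against 31.9% and 30.6% of all genes tested. Without TKO-2i replicate 2 there were 5 higher and 3 lower, and without both replicate 2 libraries 5 and 5. Hist1h3h was the most abundant H3 gene over all libraries (mean TPM 20.5), but in TKO-serum Hist1h3g had more (mean TPM 11.4 against 11.0). Hist1h3h had 5.31, 3.80 and 5.82 CPM in TKO-2i and 1.97, 0.977 and 1.85 CPM in TKO-serum. TKO-2i libraries were all above TKO-serum libraries (log2 fold change 1.66, SE 0.26, edgeR adjusted p = 0.000604), and 5.77% of its 31-base words occur in no other gene. Hist1h3c had 4.13, 3.87 and 3.71 CPM in TKO-2i and 2.07, 1.90 and 1.76 CPM in TKO-serum. Its values were close within each group and far apart between them (log2 fold change 1.03, SE 0.12, edgeR adjusted p = 8.81e-05). Hist1h3a, with 1.85, 2.001 and 1.92 CPM in TKO-2i and 1.06, 1.22 and 0.979 CPM in TKO-serum, was higher in the same way (log2 fold change 0.82, SE 0.15, edgeR adjusted p = 0.00143).

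In the opposite direction, Hist2h3c2 had 0.335, 0.568 and 0.375 CPM in TKO-2i and 1.58, 1.71 and 1.74 CPM in TKO-serum. Each TKO-serum library had more than each TKO-2i library (log2 fold change −1.97, SE 0.22, edgeR adjusted p = 7.34e-05). Hist1h3g had 1.43, 1.36 and 1.62 CPM in TKO-2i and 2.72, 2.33 and 2.11 CPM in TKO-serum and was lower without overlap (log2 fold change −0.70, SE 0.15, edgeR adjusted p = 0.00368). Hist1h3d and Hist1h3f, named after their values were seen, were lower with log2 fold changes of −1.14 and −0.71 (SE 0.19 and 0.25, edgeR adjusted p = 0.000889 and 0.0329). The call of Hist1h3f was lost without TKO-2i replicate 2 or 3 and without TKO-serum replicate 1 or 3, with adjusted p between 0.0667 and 0.121, and in DESeq2 (0.0824). Hist1h3i had 1.83, 1.21 and 1.81 CPM in TKO-2i and 1.32, 0.921 and 1.09 CPM in TKO-serum and was not called (log2 fold change 0.55, SE 0.22, edgeR adjusted p = 0.0568), but it was called higher without TKO-2i replicate 2 (adjusted p = 0.00841), TKO-serum replicate 1 (0.0463) or both replicate 2 libraries (0.0308). The summed TPM of H3 genes was 78.3, 78.0 and 80.9 in TKO-2i and 63.4, 55.0 and 60.5 in TKO-serum, higher in all TKO-2i libraries with a fold of 1.33. On the CPM scale, which does not divide by length, the groups overlapped and the fold was 1.19. Without Hist1h3h the groups overlapped on both scales, with folds of 1.01 in TPM and 0.973 in CPM. With Hist1h3c left out as well, the sum was lower in all TKO-2i libraries on both scales, with folds of 0.864 and 0.807.

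H4 genes had 2 higher and 2 lower among 11 tested of 13 (18.2% each, against 31.9% and 30.6% of all genes tested). Between 1 and 3 were higher and 2 or 3 lower when each library was left out. In limma on log2(TPM + 1), 1 was higher and 4 lower. Hist1h4i was the most abundant of them (mean TPM 12.2), with 3.77, 3.18 and 2.77 CPM in TKO-2i and 6.51, 5.98 and 5.96 CPM in TKO-serum. It was lower in all TKO-2i libraries (log2 fold change −0.92, SE 0.12, edgeR adjusted p = 0.000241). Hist1h4d had 1.92, 1.16 and 1.92 CPM in TKO-2i and 1.11, 0.996 and 0.762 CPM in TKO-serum and was called higher (log2 fold change 0.80, SE 0.24, edgeR adjusted p = 0.0192). That call was lost without TKO-2i replicate 1 or 3 and without TKO-serum replicate 3, with adjusted p between 0.0607 and 0.0754, and in limma on log2(TPM + 1) (0.0533). Hist1h4j and Hist4h4 were named after their values were seen: Hist1h4j was lower (log2 fold change −1.28, SE 0.26, edgeR adjusted p = 0.00237). Hist4h4 was higher (log2 fold change 1.05, SE 0.28, edgeR adjusted p = 0.0104). Hist1h4h was not called in edgeR and its groups overlapped in CPM (log2 fold change −0.38, SE 0.21, edgeR adjusted p = 0.137). In TPM it did not overlap, with 4.03, 4.97 and 3.60 TPM in TKO-2i and 7.27, 5.43 and 5.80 TPM in TKO-serum, and limma called it lower on log2(TPM + 1) (−0.46, adjusted p = 0.0374) and on log2(TPM + 0.1) (−0.55, adjusted p = 0.0352). The summed CPM of H4 genes was 11.3, 8.84 and 10.01 in TKO-2i and 13.4, 11.4 and 11.6 in TKO-serum, lower in all TKO-2i libraries with a fold of 0.826. Without Hist1h4i the groups overlapped and the fold was 1.13 in CPM and 0.921 in TPM. The median log2 fold change of H4 genes was 0.14, between −0.13 and 0.36 with each library left out in turn, −0.01 without both replicate 2 libraries and −0.03 in limma on log2(TPM + 1).

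The direction of the calls went with the annotated 3' end, a feature the choice of genes did not use. The grouping was made after the counts were seen and is a description without a test. In 26 genes the most read transcript is annotated with more than 150 bases after the stop codon. In 41 genes it has 150 or fewer, and 3 genes have no annotated coding region. For 16 of the 41 the annotation stops within 20 bases of the stop codon and holds no stem-loop, so their true 3' ends are not given. Of the 25 genes tested in the long group, 2 were higher and 13 lower in TKO-2i, with a median log2 fold change of −0.71. Of the 34 tested in the short group, 9 were higher and 3 lower, with a median of 0.22. Within it, genes annotated only to the stop codon had 2 higher, Hist1h3h and Hist1h2ai, and 0 lower of 12 tested. Those with the stem-loop near the end had 6 higher and 2 lower of 19. Over all genes tested, whatever their 3' end, 31.9% were higher and 30.6% lower with a median of 0.01, and among those with a mean CPM between 0.2 and 20, 24.8% and 36.6% with a median of −0.15; the 3' ends of other genes were not compared. Where the mean was 1 CPM or more, the long group had 1 higher and 7 lower of 11, and the short group 8 higher and 1 lower of 15. In 3 of these 11 and 13 of these 15 genes, under 50% of the 31-base words occur in no other gene.

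The long group kept this balance in all alternatives run, with 1 or 2 genes higher and between 10 and 15 lower. The short group was less steady: it had 7 higher and 8 lower in limma on log2(TPM + 1), 7 and 7 in limma on log2(TPM + 0.1), and 11 higher and 6 lower without both replicate 2 libraries. Its median was above 0 in these fits, at 0.05, 0.09 and 0.32.

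Summed over genes, the CPM of the long group was 44.7, 38.3 and 43.3 in TKO-2i and 72.8, 62.0 and 66.3 in TKO-serum, and the groups did not overlap (fold 0.628, or 0.625 without Hist1h1c, Hist1h2bc and Hist1h4i, also without overlap). That of the short group was 56.3, 44.0 and 53.7 in TKO-2i and 44.5, 34.2 and 38.2 in TKO-serum, with TKO-2i replicate 2 below TKO-serum replicate 1 and a fold of 1.32. In TPM the short group did not overlap, with 243, 235 and 240.0 in TKO-2i and 220.2, 187 and 200.4 in TKO-serum and a fold of 1.18, but it overlapped without Hist1h3h (fold 1.09). Without Hist1h3h, Hist1h2ai and Hist1h2bk, the 3 genes with the largest differences in TPM, its fold was 1.001 with overlap, and in CPM, without Hist1h3h, Hist1h2bk and Hist1h3c, it was 1.14 with overlap. By type, the long group had 2 of 4 H1, 1 of 3 H2A, 5 of 7 H2B, 3 of 5 H3 and 2 of 6 tested H4 genes lower. Its higher genes, Hist1h4d and Hist4h4, are both H4 genes. In the short group the higher genes were 1 of 2 H1, 3 of 12 H2A, 2 of 8 H2B and 3 of 7 H3 genes, and the lower ones 2 H2A genes and 1 H3 gene. The H2A genes of this group had a median of −0.05, and none of its 5 tested H4 genes was called. Among all genes tested the shares were 31.9% higher and 30.6% lower.

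**Figure D2:**
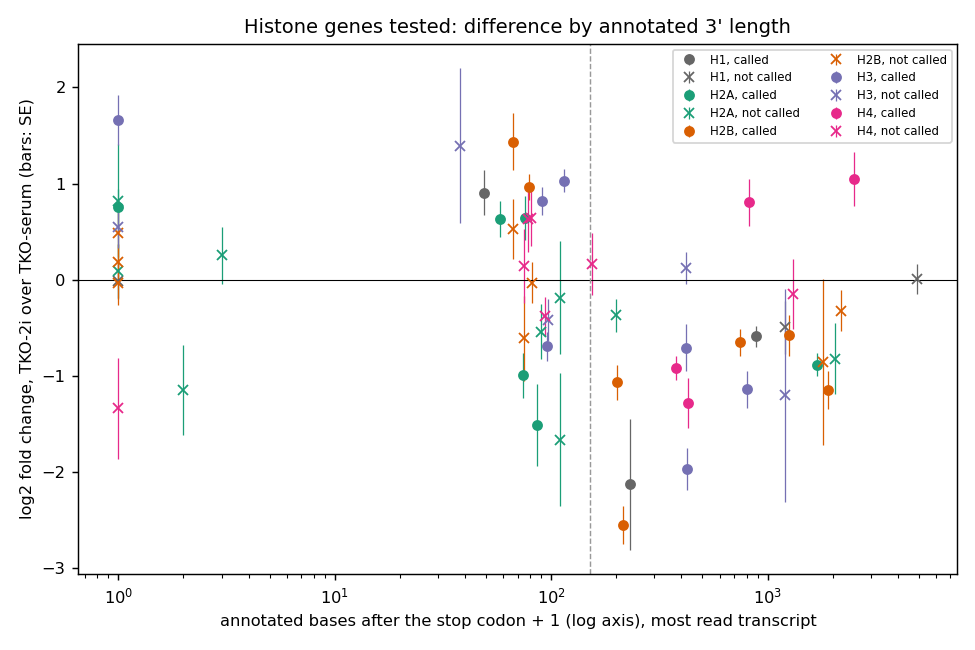
Log2 fold change of TKO-2i over TKO-serum with its SE (y axis) against the annotated bases after the stop codon plus 1 in the most read transcript (x axis, logarithmic), for tested histone genes with a coding region; circles are called, crosses not called, and the dashed line marks 150 bases. Right of the line 13 of 25 genes were lower and 2 higher, left of it 3 of 34 lower and 9 higher.

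**Figure D3:**
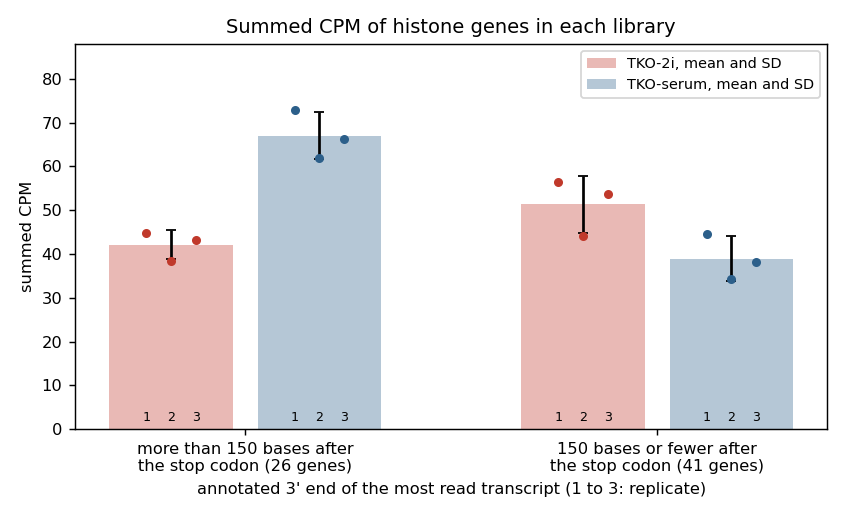
Summed CPM (y axis, from 0) of the 26 histone genes with a long and the 41 with a short annotated 3' end; bars are group means with SD, and points are libraries 1 to 3 of each group. Long ends reached at most 44.7 CPM in TKO-2i libraries and at least 62.0 CPM in TKO-serum libraries.

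The histone stem-loop, with 6 paired bases and a loop of 4, was found in transcripts of 44 of the 70 histone genes and in 5 of 53320 other genes, among them the replacement histone gene H2afx. Its most frequent form occurred in 26 histone genes. In most genes of the long group the annotation runs past it, and 14 of the 26 also carry AATAAA or ATTAAA, the usual polyadenylation signals, within the last 50 bases of the most read transcript. In the short group 1 of 41 genes does, against 34.1% of all 136100 transcripts. The following 26-base windows of GENCODE M21 transcripts show that the stem-loop itself is nearly the same in genes with long and short annotated ends and in genes of either direction. Capitals mark the paired stem, and lower case the loop and 5 flanking bases on each side.
Hist1h1c: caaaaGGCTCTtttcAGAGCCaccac
Hist3h2ba: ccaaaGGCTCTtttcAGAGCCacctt
Hist1h4d: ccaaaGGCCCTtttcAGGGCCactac
Hist1h3c: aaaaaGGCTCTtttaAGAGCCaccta
Hist1h2bk: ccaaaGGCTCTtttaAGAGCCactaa
On GRCm38 they lie at chr13:23739507-23739532 (plus strand), chr11:58949344-58949369 (plus), chr13:23581945-23581970 (plus), chr13:23745042-23745067 (minus) and chr13:22036295-22036320 (plus). The annotated transcripts go on for 840 bases after the stem-loop in Hist1h1c, 169 in Hist3h2ba and 770 in Hist1h4d, but for 74 in Hist1h3c and 30 in Hist1h2bk. Of these, Hist1h1c and Hist3h2ba were lower in TKO-2i and the others higher. The deposited tables give 1 value per transcript and no coverage along it, so which part of a transcript the reads covered was not tested.

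Near-identical sequence limits the short group more than the long one. In 34 of its 41 genes, under 50% of the 31-base words of the gene's transcripts occur in no other gene, against 6 of 26 in the long group. Among genes with at least 50%, the long group had 2 higher and 10 lower of 19 tested, and the short group 1 higher and 0 lower of 4, as at an unadjusted p under 0.05 and in DESeq2, but 1 higher and 2 lower in limma on log2(TPM + 1). Hist1h1a is the higher one, with 99.7% of its words in no other gene.

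In the Hist2 cluster, Hist2h2aa2 had 0, 0.705 and 0.961 CPM in TKO-2i and 2.33, 1.03 and 1.98 CPM in TKO-serum and was not called (log2 fold change −1.67, SE 0.69, edgeR adjusted p = 0.0642), while its copy Hist2h2aa1, named after its values were seen, had 1.18, 0.250 and 0.235 CPM in TKO-2i and 0.415, 0.752 and 0.718 CPM in TKO-serum. Hist2h2aa2 had the higher value of the pair in 5 of the 6 libraries and no count in TKO-2i replicate 1. Without that library both were called lower (log2 fold change −1.09 and −1.40, edgeR adjusted p = 0.0285 and 0.0106). Hist2h2aa2 was also called lower without TKO-2i replicate 2 or 3 (adjusted p = 0.0424 and 0.0475), without both replicate 2 libraries (0.0307) and with no filter on low counts (0.0125). Summed before the fit, an alternative chosen after the data were seen, the pair had 1.19, 0.964 and 1.21 CPM in TKO-2i and 2.75, 1.78 and 2.69 CPM in TKO-serum. The sum was lower in all TKO-2i libraries (log2 fold change −1.11, SE 0.21, edgeR adjusted p = 0.00165).

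Hist2h3b, Hist2h3c1 and Hist2h3c2 form another set of copies, and Hist2h3b and Hist2h3c1 were named after their values were seen. Their sum had 1.40, 1.34 and 1.51 CPM in TKO-2i and 3.28, 2.04 and 3.63 CPM in TKO-serum. It was lower in all TKO-2i libraries (log2 fold change −1.07, SE 0.22, edgeR adjusted p = 0.00287), although Hist2h3c1 had no count in TKO-2i replicate 1 and TKO-serum replicate 2, and Hist2h3b was called higher without TKO-2i replicate 2 (log2 fold change 1.90, edgeR adjusted p = 0.0138). Without both replicate 2 libraries, Hist2h3b was called higher (2.58, edgeR adjusted p = 0.00938) and Hist2h3c1 lower (−2.23, edgeR adjusted p = 0.0278). In the Hist1 cluster, the sum of Hist1h2bq and Hist1h2br had 4.36, 3.78 and 3.50 CPM in TKO-2i and 4.03, 3.09 and 3.79 CPM in TKO-serum, and its groups overlapped (log2 fold change 0.10, SE 0.14, edgeR adjusted p = 0.556).

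By transcript, 63 of the 77 histone transcripts were tested, and 5 were called higher and 11 lower, against 11.1% higher and 12.3% lower among all 48564 transcripts tested. Only 5 histone genes have more than 1 transcript in the files, with 12 transcripts in all. Of these 12, 8 were tested and 0 called by edgeR, 0 were called by DESeq2, and 1 was lower at an unadjusted p under 0.05 in edgeR. In Hist1h2bp the shorter transcript of 469 bases, which ends after the stem-loop, had a log2 fold change of 0.49 (SE 0.47) and the longer of 621 bases one of −0.93 (SE 0.79). Of the 27 called genes, 11 had no called transcript, though all kept the sign. Among them, Hist1h1a, Hist1h2ai, Hist4h4 and Hist1h2be had kept their calls in every gene fit (transcript log2 fold change 0.85, 0.71, 1.01 and −0.96, edgeR adjusted p = 0.0977, 0.0910, 0.0912 and 0.0957). The called transcripts are the single transcripts of their genes, and Hist1h2bk, Hist1h2bj, Hist1h3a, Hist1h3c and Hist1h3h are those called higher. The counts moved with single libraries: without 1 library in turn, between 1 and 4 transcripts were higher and between 4 and 9 lower, the lowest of both without TKO-2i replicate 3.

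Clusters differed in their sums. The Hist2 cluster had summed CPM of 3.68, 3.75 and 3.96 in TKO-2i and 7.39, 5.24 and 7.86 in TKO-serum, and all TKO-2i libraries were lower (fold 0.556), but the groups overlapped without Hist2h3c2 (fold 0.655). The CPM of the Hist3 cluster summed to 3.50, 4.18 and 3.82 in TKO-2i and 9.80, 8.97 and 9.42 in TKO-serum, also lower in all TKO-2i libraries (fold 0.408), and both of its tested genes, Hist3h2a and Hist3h2ba, were called lower. The Hist1 cluster overlapped, with summed CPM of 93.6, 74.1 and 88.9 in TKO-2i and 101, 82.3 and 87.6 in TKO-serum and a fold of 0.949. It had 10 genes higher and 13 lower of 50 tested, Hist2 had 0 higher and 1 lower of 7, and the single gene of Hist4 was higher. These are 20% and 26% for Hist1 and 0% and 14.3% for Hist2, against 31.9% and 30.6% of all genes tested. The Hist2 counts were 1 higher and 2 lower without TKO-2i replicate 2, 1 and 3 without both replicate 2 libraries, 0 and 3 without TKO-2i replicate 1, and 0 higher in DESeq2, in limma on log2(TPM + 1) and at an unadjusted p under 0.05 in edgeR. The chromosomes themselves were shifted, with a median log2 fold change over all tested genes of 0.26 on chromosome 11, 0.41 on chromosome 6, −0.11 on chromosome 13 and −0.04 on chromosome 3. With the chromosome median subtracted, the log2 fold change of Hist4h4 on chromosome 6 fell from 1.05 to 0.64, and among context genes that of H3f3b from 0.51 to 0.25, of Lsm11 from 0.61 to 0.35 and of Birc5 from 0.44 to 0.18.

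Hist1 genes fall into 2 blocks and a lone pseudogene on chromosome 13. The block at chr13:21715763-22043676 has 24 genes, of which 6 were higher and 3 lower of 21 tested, with a median log2 fold change of 0.25. In the block at chr13:23531050-23934851, with 31 genes, 4 were higher and 10 lower of 28 tested, with a median of −0.52. Over all genes tested, 31.9% were higher and 30.6% lower. Among those with a mean CPM between 0.2 and 20 the shares were 24.8% and 36.6%. Most Hist1 genes of the long group lie in the second block. The first has few of them, among them the lower genes Hist1h4i and Hist1h4j. The blocks thus differ in annotated 3' end as well as in position, and these were not separated. The difference between the blocks was not tested. The pseudogene, Hist1h2al, lies apart at chr13:51202727-51203065 and was not called. Neighbours could differ in direction: the lower gene Hist1h4i lies between the higher genes Hist1h2bk and Hist1h2ag.

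**Figure D4:**
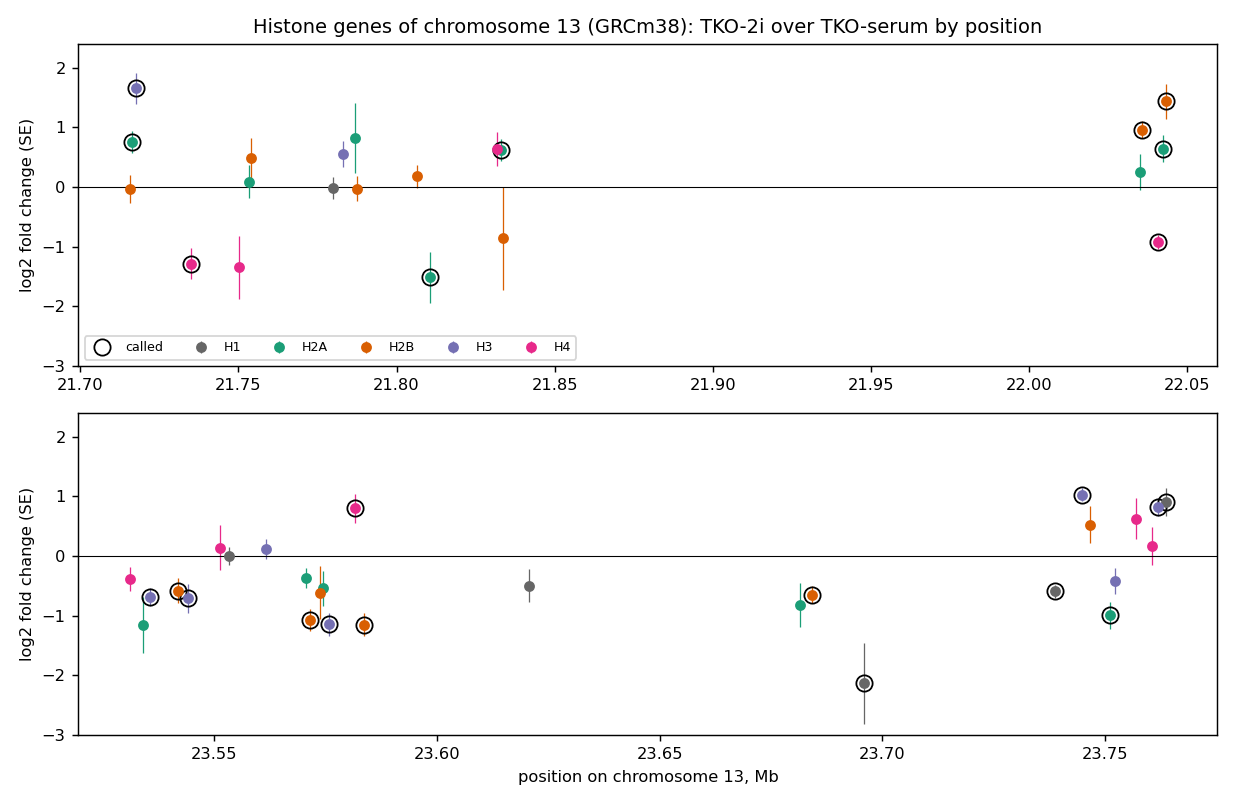
Log2 fold change of TKO-2i over TKO-serum with its SE (y axis) by position on chromosome 13 in Mb (x axis, GRCm38) for the tested genes of the Hist1 blocks; colours give the histone type and black rings mark called genes. In the upper block 6 genes were higher and 3 lower, in the lower block 4 higher and 10 lower, against 31.9% higher and 30.6% lower of all genes tested.

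Histone genes often lie head to head. Within 1000 bases, 15 such pairs were found, 14 of them of an H2A and an H2B gene, and both genes were tested in 11. In 7 of these both log2 fold changes had the same sign, and in 2 both genes were called: Hist1h2ag and Hist1h2bj, both higher, and Hist1h2bh and Hist1h3f, both lower. The 4 genes were named after their values were seen, and the calls of Hist1h2ag, Hist1h2bh and Hist1h3f were lost without single libraries. Hist1h2bj had 1.20, 0.773 and 0.727 CPM in TKO-2i and 0.311, 0.414 and 0.261 CPM in TKO-serum. Its TKO-2i libraries were all above its TKO-serum libraries.

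Promoters of 61 of the 70 genes were matched by symbol in RefSeq (GRCm38.p6), and the 250 bases before the start were searched on both strands for 4 motifs, none of which lies within another. TATAAA occurred in 29 of the 61, or 47.5%, against 13.0% of all 27025 promoters. CCAAT occurred in 82.0% against 34.5%, in all H1, H2A and H2B promoters but in 3 of 12 H4 promoters. ATTTGCAT, the octamer known from H2B promoters, was in 7 of 17 H2A and 6 of 16 H2B promoters and in no H1, H3 or H4 promoter, against 1.61% overall. AAACACA, known from H1 promoters, was in 5 of 6 H1 promoters, against 6.22% overall. Windows of head-to-head H2A and H2B genes overlap, so that a site can count for both, as the octamer of Hist1h2ae and Hist1h2bg does. The counts for H2A and H2B promoters are therefore not independent. The 120 bases upstream of the most abundant H1 gene, of the only H1 gene called higher, and of the head-to-head pair that was higher are given 5' to 3', with these motifs on either strand in capitals.
Hist1h1c: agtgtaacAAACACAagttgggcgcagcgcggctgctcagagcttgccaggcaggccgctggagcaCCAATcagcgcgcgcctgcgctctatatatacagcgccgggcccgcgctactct
Hist1h1a: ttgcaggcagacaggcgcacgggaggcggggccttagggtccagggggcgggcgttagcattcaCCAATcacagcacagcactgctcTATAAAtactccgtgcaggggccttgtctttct
Hist1h2ag: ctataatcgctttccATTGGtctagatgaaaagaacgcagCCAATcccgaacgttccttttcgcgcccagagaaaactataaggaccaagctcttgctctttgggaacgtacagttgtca
Hist1h2bj: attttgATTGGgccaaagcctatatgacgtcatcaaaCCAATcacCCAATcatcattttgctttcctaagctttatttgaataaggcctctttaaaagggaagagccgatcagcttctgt
They lie at chr13:23738687-23738806 (plus strand), chr13:23763548-23763667 (plus), chr13:22042950-22043069 (minus) and chr13:22043078-22043197 (plus). Hist1h1a was the H1 gene without AAACACA in the searched window. A match or its absence describes these letters and no binding.

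Replacement histones, which are made throughout the cell cycle from mRNAs that mostly carry a poly(A) tail, were read far more than the clustered genes. Their summed TPM was 4657, 4372 and 4522 in TKO-2i and 4247, 3999 and 4043 in TKO-serum, without overlap, while no library had more than 345.9 for the 70 clustered genes. Of 12 tested of 20 listed, 6 were higher and 2 lower (50% and 16.7%, against 31.9% and 30.6% of all genes tested), with a median log2 fold change of 0.24, against 0.01 over all genes. H2afz, the most abundant, had 1314, 1327 and 1373 TPM in TKO-2i and 1051, 992 and 967 TPM in TKO-serum and was higher (log2 fold change 0.55, SE 0.06, edgeR adjusted p = 9.75e-05). H3f3b was higher (0.51, edgeR adjusted p = 0.000110), as was H2afy, which encodes macroH2A (1.39, edgeR adjusted p = 5.85e-07). H3f3a, which encodes the same protein as H3f3b, was not called in edgeR (−0.22, edgeR adjusted p = 0.121) but was lower in limma on log2(TPM + 1) (−0.34, adjusted p = 0.00978). In edgeR without TKO-2i replicate 1, H3f3a was called lower (−0.31, edgeR adjusted p = 0.0441). H2afx, whose mRNA can end in the stem-loop or in a tail, had 426, 443 and 439 TPM in TKO-2i and 586, 564 and 590.5 TPM in TKO-serum and was lower (log2 fold change −0.27, SE 0.08, edgeR adjusted p = 0.0190), but was not called without TKO-serum replicate 1 or 3 (adjusted p = 0.0832 and 0.0621).

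Genes for histone pre-mRNA processing had 11 higher and 4 lower of 18 tested (61.1% and 22.2%, against 31.9% and 30.6% of all genes tested), with a median of 0.20. Slbp, the stem-loop binding protein, had 97.5, 109 and 97.4 TPM in TKO-2i and 83.6, 85.0 and 77.8 TPM in TKO-serum. It was higher in all TKO-2i libraries (log2 fold change 0.39, SE 0.06, edgeR adjusted p = 0.000419). Lsm10 and Lsm11, the proteins particular to the U7 particle, were higher (log2 fold change 0.74 and 0.61, edgeR adjusted p = 0.000167 and 3.37e-05). Zfp473, a partner of SLBP and U7, had 11.4, 12.3 and 10.6 TPM in TKO-2i and 18.2, 20.02 and 17.7 TPM in TKO-serum and was lower (log2 fold change −0.63, SE 0.05, edgeR adjusted p = 8.40e-06). Casp8ap2, which acts with the U7 particle, was not called (0.18, edgeR adjusted p = 0.220).

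Among genes of histone mRNA turnover, 6 were higher and 0 lower of 10 (60% and 0%, against 31.9% and 30.6% of all genes tested), with a median of 0.32, and Tut4 had the largest difference (0.49, edgeR adjusted p = 0.00523). None of that list was lower in DESeq2, in limma on log2(TPM + 1) or at an unadjusted p under 0.05 in edgeR. Genes of histone gene transcription had 4 higher and 3 lower of 12 (33.3% and 25%, against 31.9% and 30.6% of all genes tested), with a median of 0.04. Npat, the coactivator of histone genes, had 17.3, 26.1 and 18.4 TPM in TKO-2i and 18.7, 21.4 and 19.3 TPM in TKO-serum, with overlapping groups (log2 fold change 0.04, SE 0.07, edgeR adjusted p = 0.677). Ccne1, the cyclin that acts with Cdk2 on NPAT, was lower (−0.60, edgeR adjusted p = 4.79e-05), and Cdk2 was higher (0.54, edgeR adjusted p = 2.55e-05).

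The general cleavage and polyadenylation genes had 7 higher and 1 lower of 18 (38.9% and 5.56%, against 31.9% and 30.6% of all genes tested), with a median of 0.09. Fip1l1, a subunit of the cleavage complex, was the lower one, with 29.5, 33.5 and 30.4 TPM in TKO-2i and 49.8, 56.1 and 51.7 TPM in TKO-serum (log2 fold change −0.70, SE 0.05, edgeR adjusted p = 5.09e-06). Pcf11, which links cleavage to termination, was higher (0.64, edgeR adjusted p = 0.000593). Histone chaperones had 6 higher and 3 lower of 22 (27.3% and 13.6%, against 31.9% and 30.6% of all genes tested), with a median of 0.08, and Chaf1b, a subunit of the chromatin assembly factor, had the largest difference (0.81, edgeR adjusted p = 4.47e-05).

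Genes of DNA replication, the process that histone synthesis accompanies, had 17 higher and 1 lower of 28 (60.7% and 3.57%, against 31.9% and 30.6% of all genes tested), with a median of 0.20. Rrm2, of the ribonucleotide reductase, was higher (0.50, edgeR adjusted p = 3.93e-05), and Rfc4, of the clamp loader, was the lower one (−0.58, edgeR adjusted p = 1.21e-05). Pcna had 327, 325 and 335 TPM in TKO-2i and 315, 308 and 307 TPM in TKO-serum, a difference at the threshold (log2 fold change 0.18, SE 0.07, edgeR adjusted p = 0.0494) whose call was lost without any one of TKO-2i replicates 1 and 3 and TKO-serum replicates 2 and 3, with adjusted p between 0.151 and 0.191, and in most other methods, among them DESeq2 (0.0730). Genes of G2 and mitosis had 2 higher and 9 lower of 20 (10% and 45%, against 31.9% and 30.6% of all genes tested), with a median of −0.10. Hmmr was lower (−0.64, edgeR adjusted p = 4.55e-05) and Birc5 higher (0.44, edgeR adjusted p = 0.000434). The part of cell cycle phase in the histone values was not tested.

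RNAs known to lack a poly(A) tail were read at low levels. The 16 listed summed to 113, 105 and 93.5 TPM in TKO-2i and 99.9, 107 and 108 TPM in TKO-serum, with overlapping groups. Rnu73b had the most (mean TPM 45.9), and Rnu3b1 was at 0 in all libraries. Of 5 tested in edgeR, 0 were higher and 1, Scarna13, named after its values were seen, was lower, against 31.9% higher and 30.6% lower of all genes tested. DESeq2 tested 12 of them and called 0 higher and 1 lower. At an unadjusted p under 0.05, edgeR had 1 higher and 1 lower.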

How the data were processed

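RNA-seq libraries of TKO mESCs, 3 in 2i and 3 in serum, were used. The authors deposited, for each library and transcript, an estimated count of reads and a TPM value with lengths. The estimated counts are not normalized and divide reads that several transcripts share, and the deposited TPM values are scaled for transcript length and library. The labels name no program for these values and give the build as mm10. The authors' methods describe Tophat alignment and RPKM, which are not what these columns hold. Of 136288 transcripts, 136100 matched GENCODE M21 (GRCm38) by identifier.

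Counts and TPM were summed per gene and counts rounded. edgeR 4.0.16 (R 4.3.3) was run on all genes with filterByExpr, TMM and glmQLFTest, with Benjamini-Hochberg adjustment over all genes tested and a threshold of 0.05, and likewise on transcripts. The SE of a log2 fold change was its size divided by the square root of F. Sums over genes have no test. Alternatives were DESeq2 1.42.0, its size factors in edgeR, other filters, length-scaled counts, limma 3.58.1 on TPM with pseudocounts of 1 and 0.1, a replicate block, chromosome medians and each library left out. Summed copies, sums without the genes of largest difference, TPM rescaled without Gm23935 and Mir6236, and both replicate 2 libraries left out were chosen after seeing the data.

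Histone genes whose mean was 1 CPM or more, and the most abundant gene of each type, were named by rule; from each context list, the 4 called genes of at least 1 CPM with the largest differences, the most abundant gene, and Slbp, Npat, Zfp473, Lsm11, Casp8ap2, H2afz, H3f3a, H3f3b, H2afx and Pcna could be named. Members and lists were chosen with earlier results of these data known. Stem-loops and 31-base words were searched in GENCODE M21 transcripts. The floor reflects counting error alone, because copies made by PCR were not identified.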

Additional observations from a re-analysis of the deposited data

How the results depend on the processing

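Over all alternatives, between 8 and 15 histone genes were higher and between 13 and 22 lower in TKO-2i, within 1.5 times of the 11 and 16 given. The same bounds were 8 to 15 and 13 to 19 with each library left out in turn. Of the 27 called histone genes examined, 20 kept call and direction in every gene fit that tested them, but 4 of these 20 had no called transcript. Histone transcripts moved more. From 5 higher and 11 lower they went to 3 and 6 with no filter on low counts and to 2 and 4 with both replicate 2 libraries left out. With each library left out, between 1 and 4 were higher and between 4 and 9 lower. The fold of summed TPM was 0.948, with 0.918 to 0.983 when each library was left out and 0.879 for summed CPM, which does not divide by length. For the other differences the cause was not tested.

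In the labels, replicates share only a number, and the main fit used no pairing. Deviations from the group mean correlated at 0.242, 0.329 and 0.0140 between TKO-2i and TKO-serum libraries of replicates 1, 2 and 3. TKO-2i replicate 2 had −0.326 with TKO-serum replicate 1, and TKO-2i replicate 1 had −0.237 with TKO-serum replicate 2. TKO-2i replicate 3 correlated best with TKO-serum replicate 1 (0.123). Whether libraries of the same number share a further factor was not tested. With a replicate block, 12539 genes were called in place of 11361, 13 histone genes were higher and 20 lower, and 3 histone transcripts were higher and 8 lower. With the block, Hist1h3i (0.53, adjusted p = 0.0233) and Casp8ap2 (0.17, 0.0323) were also called higher, and Hist1h2ae (−0.38, 0.0142), Hist2h2aa2 (−1.71, 0.0405) and H3f3a (−0.22, 0.00583) lower. Hist1h1d had −0.00404 with the block.

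Genes whose log2 fold change turned its sign were not called in edgeR. Hist1h2bp (−0.03) had 0.19 with both replicate 2 libraries left out and −0.19 to 0.11 with each library left out. Hist1h2bq (0.18) had −0.0475 from length-scaled counts, −0.14 and −0.13 in limma with pseudocounts of 0.1 and 1, and −0.0189 to 0.29 with each library left out. Hist1h2ah (0.25) had −0.0329 to 0.53 with each left out. Hist1h1d (0.00) had −0.000915 in DESeq2, −0.0164 with its size factors, −0.0390 at 10 counts or more in every library, −0.0842 and −0.0294 in limma, −0.0117 with no filter, and −0.0664 to 0.098 with each library left out. In limma, Hist1h3e (0.12) had −0.0118 and −0.0101, and Casp8ap2 (0.18) −0.00975 and −0.00897. Hist2h2aa1 (−0.19) had 0.31 with both replicate 2 libraries left out and −1.40 to 0.18 with each left out. Npat (0.04) had −0.00222 at 10 counts or more and −0.0274 to 0.0876 with each left out. The cause was not tested.

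The sequencing pool of each library is not stated. Most histone genes had few reads, and many share sequence, so that estimated counts of near-identical genes depend on how shared reads were divided. The files hold no coverage along transcripts, so tailed and stem-loop ends cannot be told apart. Each group has 3 libraries, and the series used here holds no wild-type line, other medium or RNA sequenced without poly(A) selection. The paper lists separate deposits with RNA-seq of wild-type cells in both media and of inhibitor-treated cells of another line. For the inhibitor-treated cells its methods describe ribosomal RNA depletion in place of poly(A) selection. Those deposits were not used.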
